A study of Mus musculus with 3 samples.

Results

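Motile cilia genes are described here as a set of 39 genes, of 32287 features listed in each library, followed through lung cells recovered after injury. The set was written down by name and holds the transcription factors of multiciliated cells, the dynein motors, the radial spokes, the central apparatus, the rulers and links of the doublet microtubules, assembly factors, and other proteins of the ciliary shaft and membrane. All 39 names were found in the features. Counts are UMIs, unique molecular identifiers that mark captured RNA molecules, and they were read in ciliated cells, defined by the set's own rule as cells with at least 2 UMIs of Foxj1, and in the other airway and alveolar classes.

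The libraries came from whole lungs of Scgb1a1-CreER;Sftpc-DreER;R26-TLR mice, dissociated 4 weeks after bleomycin, a drug that injures the alveolar epithelium. All groups share this genotype and this injury, and no uninjured group was analysed here. CreER was driven by Scgb1a1, a gene of airway club cells, and DreER by Sftpc, a gene of alveolar type 2 (AT2) cells. Cells with red tdTomato formed the Club-Tracer library, cells with green ZsGreen the AT2-Tracer library, and cells with both colours the BASC-Tracer library, named for bronchioalveolar stem cells. There was 1 library per lineage and the labels do not state the number of animals, so no test between lineages was possible and no p-value is given. Differences between libraries have no replicate check.

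Motile cilia beat by the sliding of doublet microtubules around a central pair. Axonemal dyneins in outer and inner arms pull on the neighbouring doublet, nexin links and radial spokes turn sliding into bending, and the dynein arms are put together in the cytoplasm before transport. In the airway, multiciliated cells arise from basal and club cells. Multicilin (Mcidas) starts the amplification of centrioles, and Foxj1 with the RFX factors switches on the genes of the axoneme. RFX proteins bind the X-box, an inverted repeat whose arms resemble GTTGCC.

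Promoter sequences show how far such sites lie near the starts of these genes. RefSeq promoter sequence (GRCm38.p6) was found for 33 of the 39 genes, 38 promoters in all, and the 250 bases before each start were searched on both strands. A single arm, GTTGCC, was present before 13 of 33 genes (39.4%), against 11.8% of the 27025 genes in the same table. The X-box with both arms, searched strictly as GTTNCCNGGNAAC or GTTNCCNNGGNAAC, was present before 3 of 33 (9.09%), against 0.703% of all genes. Paired arms that differ from these letters were not counted. These 3 genes were 1110017D15Rik, Fam183b and Pifo, where the match began 18, 16 and 20 bases before the start. In 1110017D15Rik and Pifo only 1 of the annotated starts had it, and a full match can contain the single arm. The forkhead letters TGTTTAC, the core bound by Foxj1 and its relatives, were present before 2 of 33 genes, Ak7 and Cfap43 (6.06%, against 3.54% of all genes). A match is a description of letters and not evidence of binding. The 100 bases before the start are printed for the 3 genes with a full match and for Dynlrb2 and Tekt1, which matched only the single arm. In Dynlrb2 the letters after that arm resemble the other arm of the repeat but miss the searched pattern. Sec14l3 is also printed, which had no match to these letters and which had the most RNA of the 39 in club-like and AT1-like cells. Capitals mark X-boxes and single arms. The windows are chr4:41507765-41507864 (reverse strand) for 1110017D15Rik, chr11:58801961-58802060 (reverse) for Fam183b, chr3:106001498-106001597 (reverse) for Pifo, chr8:116504915-116505014 (forward) for Dynlrb2, chr11:72361883-72361982 (reverse) for Tekt1 and chr11:4064753-4064852 (forward) for Sec14l3.
1110017D15Rik: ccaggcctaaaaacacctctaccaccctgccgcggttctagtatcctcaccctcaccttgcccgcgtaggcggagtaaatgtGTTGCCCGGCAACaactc
Fam183b: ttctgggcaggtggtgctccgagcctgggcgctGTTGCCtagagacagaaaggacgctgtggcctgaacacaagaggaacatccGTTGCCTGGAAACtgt
Pifo: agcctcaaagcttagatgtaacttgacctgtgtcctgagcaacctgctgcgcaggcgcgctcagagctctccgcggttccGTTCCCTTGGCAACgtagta
Dynlrb2: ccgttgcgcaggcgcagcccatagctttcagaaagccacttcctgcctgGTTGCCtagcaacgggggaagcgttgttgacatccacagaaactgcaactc
Tekt1: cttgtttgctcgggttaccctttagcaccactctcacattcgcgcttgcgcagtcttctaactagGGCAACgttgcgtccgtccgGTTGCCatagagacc
Sec14l3: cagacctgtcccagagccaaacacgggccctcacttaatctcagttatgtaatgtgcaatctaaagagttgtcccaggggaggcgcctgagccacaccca

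Barcodes with at least 500 genes and at most 15% mitochondrial UMIs were kept, 3196 in the Club-Tracer, 1402 in the BASC-Tracer and 5859 in the AT2-Tracer library, with medians of 15406, 15221.5 and 9682 UMIs. The libraries shared 6 to 23 barcode sequences pairwise. Although the labels give lung epithelial cells, 76 Club-Tracer, 130 BASC-Tracer and 1297 AT2-Tracer barcodes fell into leukocyte-, endothelial- or mesenchyme-like clusters. These cells, called outside the epithelium below, serve as the comparison group that should lack ciliary genes. A further 302, 403 and 1544 barcodes lay in clusters left unnamed, which count in the shares of barcodes but belong to no class below. An unnamed cluster with 806 AT2-Tracer cells was led by Chil3, Ear2 and Marco, with 3 macrophage or monocyte markers in its top 50 genes. The group outside the epithelium is therefore not complete. Intervals are 95%, exact, and cover counting error only. CPM is the usual scaling of UMIs, summed over a group of cells, to a common total. A UMI marks a molecule's 5′ end, so CPM here carries no scaling by transcript length.

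Cells with at least 2 Foxj1 UMIs were common in the Club-Tracer library and rare in the AT2-Tracer library. They were 512 of 3196 barcodes in the Club-Tracer library (16.0%, 14.8 to 17.3), 89 of 1402 in the BASC-Tracer library (6.35%, 5.13 to 7.75) and 43 of 5859 in the AT2-Tracer library (0.734%, 0.532 to 0.987). Sorting and depth can each set these shares. The label was checked against clusters built without the 39 genes, the other cilia genes listed below or the reporters. In the Club-Tracer library 441 of the 512 cells lay in the ciliated-like cluster, and in the BASC-Tracer library 78 of the 89. In the AT2-Tracer library only 11 of the 43 did, so there the Foxj1 rule goes against the name: 13 of the 32 others were AT2-like and 13 transitional-like. The transitional-like cluster had 6 of the transitional markers, such as Krt8 and Cldn4, among its top 50 genes by fold, but was led by Pyy, Prss23 and the contractile genes Tagln, Myl9 and Tpm2.

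Most Foxj1-positive cells outside the ciliated-like cluster held little ciliary RNA. For this check 32 structural members were summed, leaving out the 4 regulators and Tuba1a, Tppp3 and Sec14l3, a choice made after their levels were seen. In the ciliated-like cluster these cells had medians of 157, 198 and 169 structural UMIs (Club-, BASC- and AT2-Tracer), with minima of 14, 34 and 51. Outside it the medians were 1, 1 and 0, although the cells were deeper (medians of 30347, 39471 and 19764 UMIs, against 12188, 14747 and 12016). Structural UMIs were at 0 in 27 of 71, 3 of 11 and 18 of 32 of them, and 7, 2 and 0 were marked as doublets. Some held more: 9, 0 and 1 of them had at least 10 structural genes, with up to 190 structural UMIs in the Club-Tracer library, and 101 of the 137 structural UMIs of the AT2-Tracer cells came from 1 cell. The 8 club-like Club-Tracer cells had a median of 14.5. After each cell was thinned to 1500 UMIs, a median of 16, 16 and 17 of the 39 genes was detected per cell in the cluster and 0 outside it in every library. At the edge of the rule, the 55 Club-Tracer cells with exactly 2 Foxj1 UMIs had a median of 5 structural UMIs and the 175 with exactly 1 had a median of 1. The plot of Foxj1 against structural UMIs shows both kinds of cell.

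**Figure D1:**
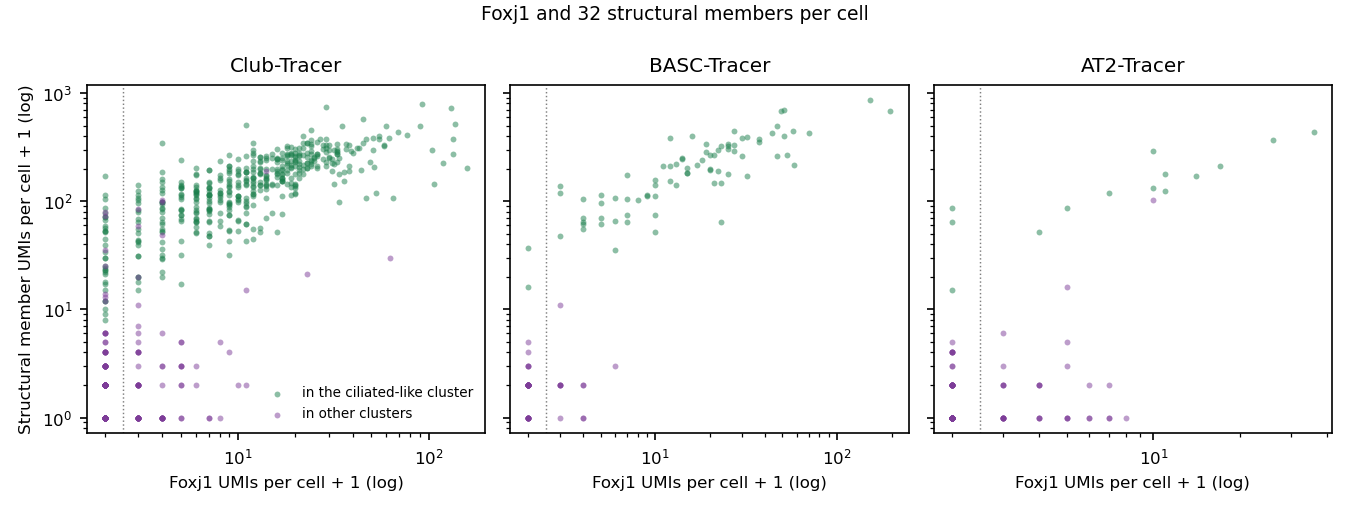
Each point is a cell with at least 1 Foxj1 UMI. The x axis is its Foxj1 UMIs plus 1 and the y axis its UMIs summed over 32 structural members plus 1, both on log axes, in 1 panel per library. Green points lie in the ciliated-like cluster and purple points in other clusters, and the dotted line marks the rule of 2 UMIs. Of the cells past the line, 441, 78 and 11 are green and 71, 11 and 32 purple, and the purple ones lie mostly near 0 structural UMIs.

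The 39 genes made up 1.67% of all UMIs (1.66 to 1.68) in Foxj1-positive Club-Tracer cells, 1.81% (1.80 to 1.83) in BASC-Tracer cells and 0.473% (0.459 to 0.488) in AT2-Tracer cells. Limited to cells that were also in the ciliated-like cluster, an alternative chosen after seeing the data, the shares were 2.25%, 2.34% and 2.20%. In the 11 AT2-Tracer cells inside the cluster the share was therefore close to that of the other libraries. The levels by role below are from these 441, 78 and 11 cells, called ciliated cells, and the AT2-Tracer values rest on 160455 UMIs against 6464848 and 1466911.

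Among the regulators, Foxj1, which also chose the cells and is given only as a description, stood at 1169 CPM in Club-Tracer, 1226 in BASC-Tracer and 873 in AT2-Tracer ciliated cells. Rfx2, an X-box factor, stood at 99.3, 96.8 and 81.0 CPM, with 13 UMIs behind the AT2-Tracer value. Rfx3, its relative, stood at 66.4 CPM in the Club-Tracer, 105 in the BASC-Tracer and 93.5 in the AT2-Tracer library. Mcidas, the multicilin gene, was detected in 6.12% of Club-Tracer and 5.13% of BASC-Tracer ciliated cells, and at 0 UMIs in the 11 AT2-Tracer cells.

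Axonemal dyneins, the motors, made up 0.0851%, 0.0982% and 0.0767% of UMIs in Club-, BASC- and AT2-Tracer ciliated cells. The outer-arm heavy chain Dnah5 stood at 308, 382 and 280 CPM, and the outer-arm heavy chain Dnah9 at 212, 247 and 206 CPM. Dnah11, another outer-arm heavy chain, stood at 125, 143 and 150 CPM. All 3 heavy chains had higher values in BASC-Tracer than in Club-Tracer ciliated cells, and Dnah11 had its highest value in the AT2-Tracer library. These orders are given without their counting error, and the 4 dyneins together rest on 123 UMIs in the AT2-Tracer library. The light intermediate chain Dnali1, of the inner arms, stood at 207 and 209 CPM in the Club- and BASC-Tracer libraries and at 131 CPM in the AT2-Tracer library, where it rests on 21 UMIs.

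The radial spoke head genes differed little, and their counting intervals overlapped across the 3 libraries. Rsph1 stood at 537 CPM in Club-Tracer, 502 in BASC-Tracer and 474 in AT2-Tracer ciliated cells, and Rsph4a at 147, 157 and 137 CPM. Both encode head proteins by which the spokes meet the central apparatus.

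Of the cytoplasmic assembly group, Dynlrb2, a roadblock-type dynein light chain, stood at 1298, 1344 and 1508 CPM. Zmynd10, needed to assemble dynein arms before they enter the cilium, stood at 142, 156 and 137 CPM. Ak7, a ciliary adenylate kinase, stood at 278, 318 and 324 CPM, and Pifo, also called pitchfork, at 330, 300 and 368 CPM. The 4 genes placed in this group, of which Dynlrb2 was the highest, made up 0.205%, 0.212% and 0.234% of UMIs in the order Club-, BASC- and AT2-Tracer.

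The central apparatus genes made up 0.109%, 0.129% and 0.108% of UMIs. The central pair genes Spag17 and Cfap54 were highest in Club-Tracer ciliated cells, at 305 and 241 CPM, and Hydin and Spag16 lowest, at 190 and 145 CPM. Hydin, a large central pair protein, stood at 245 CPM in BASC-Tracer and 206 CPM in AT2-Tracer ciliated cells. The doublet rulers and nexin links made up 0.182%, 0.204% and 0.226%. Ccdc153 and Ccdc113 were at the top of that group, at 895 and 329 CPM in the Club-Tracer library, with Ccdc40 and Drc1 at its foot at 185 and 138 CPM. Ccdc40, which with Ccdc39 forms the ruler that spaces dynein arms and spokes, stood at 282 CPM in the BASC-Tracer library and 181 CPM in the AT2-Tracer library.

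The tubulin, tektin and other doublet genes had the largest summed share of the roles, 0.817%, 0.778% and 0.785% of UMIs over 13 genes. Tuba1a, an alpha-tubulin, stood at 2185, 2218 and 1826 CPM, and its reads are uncertain because Tuba1b and Tuba1c are near-identical. Tppp3, a tubulin polymerization promoting protein, stood at 1825, 1397 and 1446 CPM. At the low end were Tekt1, a tektin of the doublet wall, at 206, 225 and 174 CPM, and Cfap52 at 140, 143 and 131 CPM. Of the membrane and lipid transfer genes, the transmembrane protein gene Tmem212 stood at 1478, 1254 and 1795 CPM and Sec14l3, which encodes a SEC14-like lipid-binding protein, at 4982, 5748 and 4250 CPM. Sec14l3 was detected in 99.8% of Club-Tracer ciliated cells and in all 78 and 11 cells of the other libraries.

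**Figure D2:**
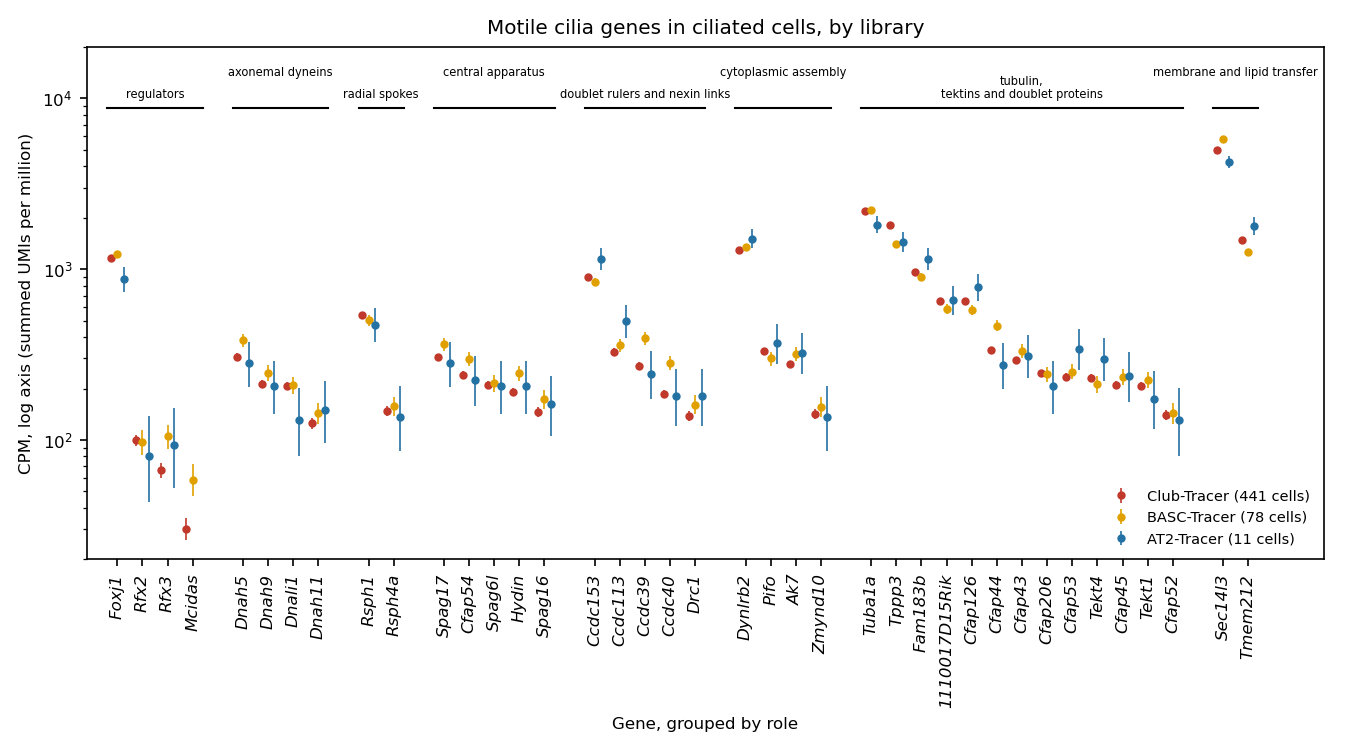
Level of each gene in ciliated cells (at least 2 Foxj1 UMIs and in the ciliated-like cluster), in CPM on a log axis, grouped by role. Points are libraries, each a sum over 441, 78 or 11 cells, and bars are exact 95% Poisson intervals for counting error. Mcidas has no AT2-Tracer point because it had 0 UMIs there, and Sec14l3 is the highest at 4982, 5748 and 4250 CPM.

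Against club-like cells of the Club-Tracer library, each of the 39 genes was higher in Foxj1-positive cells. The comparison used log2((CPM + 5)/(CPM + 5)) and called a gene apart at 2-fold where it reached 50 CPM on either side, a cut by size without a test. The background was high, since 43.3% of the 3571 genes past 50 CPM were called higher in the Foxj1-positive cells. The median over all genes past that minimum was 0.89 on the log2 scale, so the whole comparison is shifted upward. The median over the 39 genes was 4.98 (range 2.41 to 7.90), or 4.09 after the shift of all genes was taken out. Taking out the shift left 677 genes higher and 362 lower, so that 65.2% of the called genes were higher, against 94.4% (1548 higher, 91 lower) before. Of the 39, 38 passed 50 CPM and 38 were called, but 37 passed only through the ciliated side, so this count is largely fixed by the minimum. Mcidas did not pass.

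Members with high and low ratios differed in how much of them club-like cells held. Tuba1a stood at 1638 CPM in all 512 Foxj1-positive cells and at 1.86 CPM in 1015 club-like cells (879-fold, 652 to 1215), and Tmem212 at 1089 against 1.56 CPM (698-fold, 504 to 997). The dynein heavy chain Dnah5 was at 228 against 0.824 CPM (277-fold, 177 to 462). Sec14l3 was at 3727 against 448 CPM (8.31-fold, 8.13 to 8.50), the lowest ratio of CPM among the 39. Next were Rfx2, at 76.8 against 7.07 CPM (10.9-fold, 9.15 to 12.985), and Rfx3, at 50.7 against 2.17 CPM (23.4-fold, 17.43 to 31.97).

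Other genes of the cilium, taken from lists chosen with earlier results of these data known, are given for the same comparison. Of 87 listed genes 55 passed the minimum, and 55 were called higher and 0 lower in Foxj1-positive Club-Tracer cells, beside the background of 43.3% called higher. None of the 87 reached 50 CPM in club-like cells, where the highest was Cfap298 at 28.9 CPM. All 55 therefore passed only through the Foxj1-positive side, and the counts called, for the whole and for each list, repeat that minimum and support nothing. The median over all 87, with no minimum, was 3.51 on the log2 scale. Among 20 other dynein and docking genes 13 passed. Dnah12 and Dnah6, inner-arm heavy chains, led at log2 ratios of 5.28 and 4.91, while Dnah17 was at 0 UMIs on both sides and Dnah8 at 1.85 stayed under the minimum. Of 10 other radial spoke genes 8 passed, led by Nme5 at 5.997 and Rsph9 at 5.29, with Rsph3a at 1.11 under the minimum and Rsph6a at 0 UMIs on both sides. Of 14 other assembly factors 8 passed, and log2 ratios ran from Pih1d2 at 4.96 and Lrrc6 at 4.24 down to Dnaaf2 at 2.25 and Pih1d3 at 0.03, both under the minimum. Of 30 nexin, central apparatus and doublet genes 23 passed, led by Drc3 at 5.32 and Spa17 at 5.07, with Efhc2 at 1.57 and Tekt3 at 0.86 under the minimum. Among 13 other regulators and centriole genes 3 passed, Myb at 4.82, Deup1 at 3.82 and Ccno at 2.94, and the geminin relative Gmnc (-0.49) and Rfx4 (-0.03) had the lowest ratios.

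In cells other than ciliated ones the structural genes were near 0, as they were outside the epithelium. In club-like, AT2-like, AT1-like and basal-like Club-Tracer cells below the Foxj1 rule, the median structural gene stood at 0.266%, 0.249%, 0.842% and 0.265% of its level in ciliated cells. Outside the epithelium in the same library the median was 0.0609%, with 16 of 32 genes at 0 UMIs in 75 cells, which allows up to 3 UMIs each. In AT1-like cells 28 of 32 genes had 3 or fewer UMIs, and outside 31, so these medians rest on few counts. Summed over the 32 genes, cells past the rule included, the level was 103 CPM in AT1-like, 38.5 in club-like and 121 outside. Of the 78 UMIs outside, 48 came from 1 cell marked as a doublet. The sums did not keep the order of the medians. In the AT2-Tracer library the medians were 0.0595% in AT2-like, 0.0830% in AT1-like and 0.113% in transitional-like cells, against 0.0334% outside the epithelium. There 17, 23, 23 and 24 of the 32 genes had 3 or fewer UMIs. The highest structural gene in any class shown was Dynlrb2 in Club-Tracer AT1-like cells, at 10.7 CPM, in a class with a median of only 2211.5 UMIs per cell. Rfx2, at 4.94% to 27.8% of its ciliated level across the classes of airway and alveolar cells, was less restricted. It stood at 7.07 CPM in club-like and 13.7 CPM in basal-like cells of the Club-Tracer library and 20.7 CPM in AT2-Tracer transitional-like cells, against 9.48 and 6.93 CPM outside the epithelium in these libraries. Rfx3 was at 9.78 CPM (6.60 to 14.0) in basal-like cells and 2.17 CPM (1.61 to 2.86) in club-like cells of the Club-Tracer library, with 7.90 CPM (2.57 to 18.4) outside the epithelium.

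**Figure D3:**
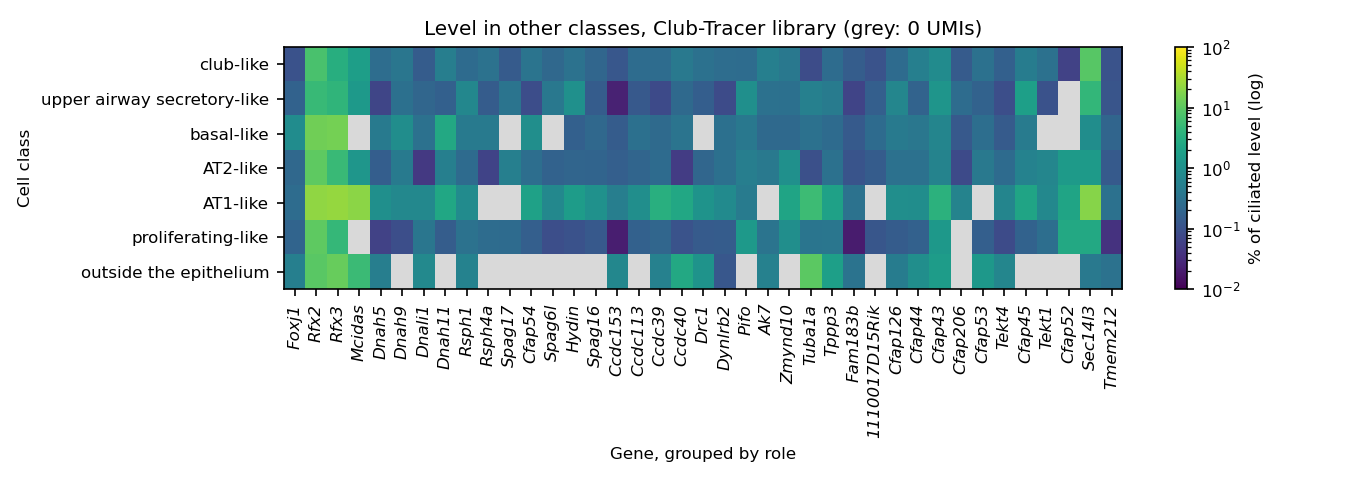
Level of each gene in 7 groups of Club-Tracer cells below the Foxj1 rule, as percent of its CPM in ciliated cells, on a log colour scale (columns are genes by role, rows are classes, grey is 0 UMIs). Sec14l3 is bright in club-like and AT1-like cells, at 9.003% and 18.7%, and Tuba1a in AT1-like cells and outside the epithelium, at 5.48% and 9.98%.

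Sec14l3 was the member with the most RNA in AT1-like, club-like and AT2-like cells. In AT1-like cells, named for the flat alveolar type 1 (AT1) cells of gas exchange, it stood at 931 CPM (858 to 1008) in the Club-Tracer, 1174 CPM (1111 to 1239) in the BASC-Tracer and 1013 CPM (990 to 1037) in the AT2-Tracer library, which is 18.7%, 20.4% and 23.8% of the level in ciliated cells. In club-like cells it stood at 448 CPM (440 to 457) and 642 CPM (623 to 662) in the Club- and BASC-Tracer libraries. In AT2-like cells it was lower, at 76.2, 79.5 and 81.6 CPM, and outside the epithelium at 20.5, 14.7 and 24.2 CPM. AT1-like and club-like values lay above the outside level in each library where they were measured, beyond counting error. In transitional-like cells Sec14l3 stood at 67.1, 69.5 and 65.9 CPM, below Tuba1a at 308, 209 and 253 CPM. In basal-like Club-Tracer cells 0 members reached 50 CPM. Sec14l3 was the only member at 50 CPM or more in upper airway secretory-like Club-Tracer cells and in proliferating-like cells of all 3 libraries.

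At equal depth the shares of cells with Sec14l3 did not keep the order of the AT1-like and club-like levels. With cells thinned to 1500 UMIs, Sec14l3 was detected in 38.6%, 54.2% and 57.2% of AT1-like cells (41.7%, 58.3% and 70.1% unthinned) in the Club-, BASC- and AT2-Tracer libraries. Thinning kept only the deeper AT1-like cells, 132 of 192, 144 of 168 and 1022 of 1205. Over whole club-like classes it kept 1014 of 1023 Club-Tracer and 210 of 213 BASC-Tracer cells. In club-like cells the thinned shares were 39.8% and 51.5% (84.4% and 91.3% unthinned), and outside the epithelium 6.06%, 0.833% and 2.09%. AT1-like cells thus did not exceed club-like cells in the thinned shares of the Club-Tracer library, and in the BASC-Tracer library the intervals overlapped (45.7 to 62.5% and 44.4 to 58.5%), while both classes stayed above cells outside the epithelium. Within the AT1-like class the level differed by cluster. The 538 AT2-Tracer cells of one cluster, with a median of 7826.5 UMIs, stood at 1260 CPM (1229 to 1292), against 408 CPM (375 to 443) and 552 CPM (503 to 604) in the other clusters with medians of 2432 and 2301 UMIs. In the Club-Tracer library 23 cells of the first cluster stood at 2896 CPM and held 462 of the 607 UMIs of the class, and the other clusters, of 60 and 109 cells, stood at 279 and 312 CPM, below the 448 CPM of club-like cells. In the BASC-Tracer library the 3 clusters stood at 1631, 844 and 376 CPM. The class level therefore depends on the mix of clusters, which differed between libraries. Tmem212, the other gene of this role, was at 4.60 CPM or less in AT1-like cells, with 0 UMIs in the BASC- and AT2-Tracer libraries.

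Tuba1a was low in club-like and AT2-like cells and higher in the transitional-like cluster and in 1 AT1-like cluster. In the AT2-Tracer library it stood at 3.97 CPM (3.14 to 4.95) in AT2-like, 253 CPM (241 to 266) in 312 transitional-like and 157 CPM (148 to 166) in AT1-like cells. Transitional-like cells of the Club- and BASC-Tracer libraries, 41 and 36 below the Foxj1 rule, stood at 308 CPM (268 to 351) and 209 CPM (181 to 238). Outside the epithelium it was at 218, 76.4 and 99.1 CPM, and the transitional-like value lay above that level in each library. Within the AT1-like class 1 cluster carried the level. That cluster stood at 408, 412 and 191 CPM (Club-, BASC- and AT2-Tracer), above the outside level, and held 256 of the 286 BASC-Tracer UMIs of the class. The other AT1-like clusters, at 34.3 and 17.4, 106 and 19.4, and 94.3 and 55.2 CPM, lay below the outside level or, at 106 CPM (68.6 to 156) and 94.3 CPM (78.7 to 112), overlapped it. One of these was led by Tpm2, Sparc and S100a6, with Ager as the AT1 marker among its top 10. Tppp3 reached 45.1 CPM in AT1-like and 44.1 CPM in transitional-like AT2-Tracer cells, with 38.1 CPM outside the epithelium. The plot by class sets these genes beside Tmem212.

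**Figure D4:**
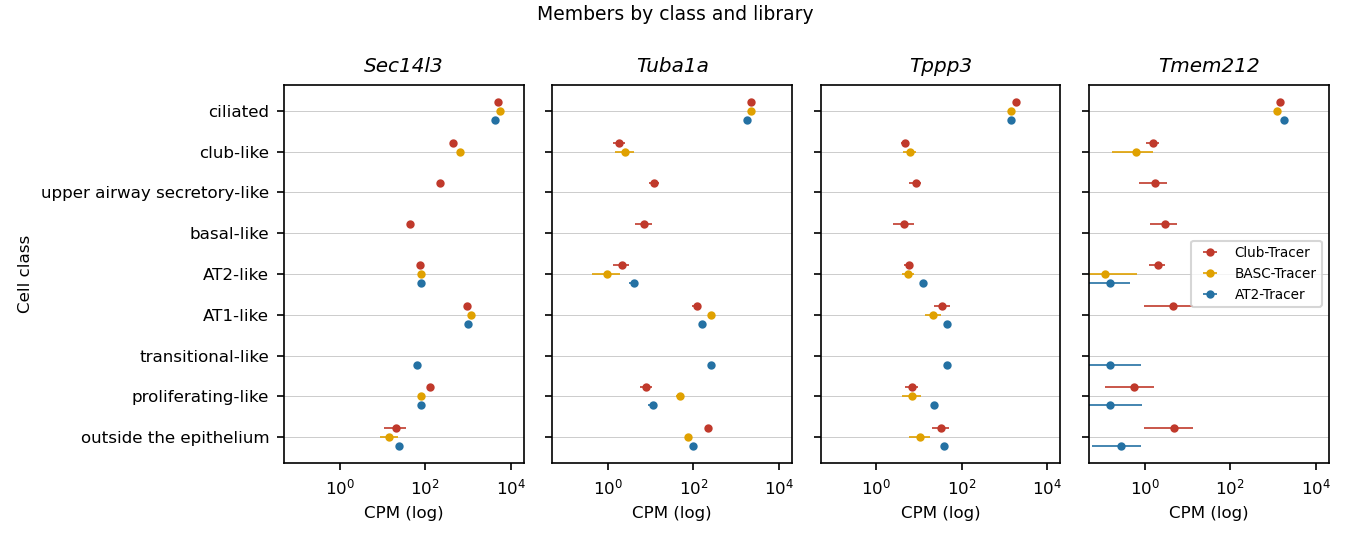
Sec14l3, Tuba1a, Tppp3 and Tmem212 by cell class (rows) in CPM on a log axis, with libraries as colours and exact 95% Poisson intervals. Classes under 50 cells in a library are left out except ciliated cells, and groups with 0 UMIs have no point. Sec14l3 is at 931, 1174 and 1013 CPM in AT1-like cells, each a sum over clusters that range from 279 to 2896, 376 to 1631 and 408 to 1260 CPM, while Tmem212 drops to 4.60 CPM or less in AT1-like cells.

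In some classes Foxj1 came with few structural UMIs. Over whole classes, including cells past the rule, the ciliated-like cluster held 10.6, 10.3 and 16.7 structural UMIs per Foxj1 UMI in the Club-, BASC- and AT2-Tracer libraries. The ratio was 13.7 in club-like cells (66 and 901 UMIs) and 11.1 outside the epithelium (7 and 78 UMIs) in the Club-Tracer library. Of the outside UMIs, 3 and 48 came from 1 dendritic-like cell marked as a doublet. The part of free RNA from ciliated cells in these counts was not tested. In basal-like Club-Tracer cells, the airway stem cells, the ratio was 1.56, with 96 Foxj1 and 150 structural UMIs over 274 cells. In transitional-like cells it was 0.926 in the Club-Tracer library (27 Foxj1 and 25 structural UMIs, 48 cells), 3.25 in the BASC-Tracer library (4 and 13 UMIs, 37 cells) and 1.75 in the AT2-Tracer library (65 and 114 UMIs, 325 cells). In the AT2-Tracer library it was 6.51 in AT2-like cells and 5 outside the epithelium (17 and 85 UMIs), and outside the epithelium of the BASC-Tracer library 1 Foxj1 and 26 structural UMIs were counted.

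In basal-like cells Foxj1 stood at 26.9 CPM (21.8 to 32.8), against 2.82 CPM (2.18 to 3.59) in club-like cells. It was at 10.9 CPM (4.37 to 22.4) outside the epithelium and 1143 CPM in the ciliated-like cluster. The outside value rests on 7 UMIs, 3 of them from the dendritic-like cell marked as a doublet. A Foxj1 UMI was seen in 49 of 274 basal-like cells (17.9%, 13.5 to 22.9), and 17 passed the rule of 2. At 1500 UMIs the share was 3.28% (1.51 to 6.14) in basal-like cells and 0.296% (0.0611 to 0.862) in club-like cells. Outside the epithelium it was 1.49% (0.0378 to 8.04), or 1 of 67 cells. The basal-like and outside intervals overlap, so at equal depth the shares of these groups could not be told apart, while basal-like exceeded club-like cells. In AT2-Tracer transitional-like cells Foxj1 stood at 9.44 CPM (7.29 to 12.04), against 3.91 CPM (3.09 to 4.87) in AT2-like cells and 1.61 CPM (0.938 to 2.58) outside the epithelium. Its thinned shares were 0.923%, 0.770% and 0.272%, with overlapping intervals. In the upper airway secretory-like class 62 of the 90 Foxj1 UMIs came from 1 cell.

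Between Foxj1-positive cells of the Club- and BASC-Tracer libraries most of the 39 genes had somewhat lower levels in the Club-Tracer library. These cells include the 71 and 11 outside the ciliated-like cluster, most of which held little ciliary RNA. All 512 and 89 cells hold 8823489 and 1895472 UMIs, against 6464848 and 1466911 for the ciliated cells inside it. Among the latter the 39 genes made up 2.25% and 2.34% of UMIs, against 1.67% and 1.81% here. How far this mix of cells sets the ratios below was not tested. The median log2 ratio of Club- over BASC-Tracer was -0.19 over the 39 genes (range -0.80 to 0.31) and 0.00 over all genes past the minimum, and 30 of the 39 lay below 0. Of the 38 genes past 50 CPM 0 were 2-fold apart, a count that cannot be told from the background of 0.842% of 3799 genes. At the low end, Ccdc40 stood at 137 CPM in Club-Tracer and 219 CPM in BASC-Tracer cells (ratio 0.626, 0.560 to 0.702) and its partner Ccdc39 at 202 and 304 CPM (0.665, 0.605 to 0.731). Rfx3 stood at 50.7 and 81.8 CPM (0.620, 0.515 to 0.749) and Cfap44, a tether of inner-arm dyneins, at 251 and 363 CPM (0.691, 0.634 to 0.753). At the other end, Tppp3 stood at 1348 and 1083 CPM (1.24, 1.19 to 1.31). These intervals leave out 1 in the direction given but hold counting error only, with 1 library on each side.

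A small group of ciliated cells held nearly all Mcidas. Of ciliated cells, 20 of 441 in the Club-Tracer library (4.54%) and 3 of 78 in the BASC-Tracer library had at least 2 Mcidas UMIs, up to 26 and 41, and 414 and 74 cells had 0. This split was chosen after its values were seen, so the differences are descriptions. Of the 13 listed regulators and centriole genes, 7 were at least 2-fold higher in the 20 Club-Tracer cells than in the 414, 0 were 2-fold lower and 5 lay below 0 (median 1.65 on the log2 scale). In the BASC-Tracer library 8 were 2-fold higher, 0 lower and 4 below 0 (median 1.91). Rfx1, among the 8, rested on 7 against 24 UMIs (ratio 2.795, 1.02 to 6.69). The share of all genes 2-fold apart in this split is not given, so these counts have no background. Over all genes past the minimum the medians were -0.05 in the Club-Tracer and 0.26 in the BASC-Tracer library. The 7 Club-Tracer genes were Cdc20b, Ccno, Deup1, Foxn4, Cep152, Plk4 and Myb. There Trp73 stood at 52.5 against 61.6 CPM and Gmnc at 0 against 1.42 CPM, with 0 and 8 UMIs. Deup1, which builds the deuterosomes on which centrioles form, stood at 497 CPM in the 20 cells against 33.4 CPM in the 414, and at 895 against 27.01 CPM in the BASC-Tracer library. Ccno, a cyclin needed for multiple cilia, stood at 978 against 30.5 CPM and at 1945 against 25.5 CPM. Cdc20b stood at 259 against 1.42 CPM in the Club-Tracer library, and each of the 20 cells had Deup1 and Ccno, with 19 having Cdc20b.

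Foxj1 was higher in these cells and several axoneme genes lower, more so in the Club-Tracer library. Foxj1 stood at 2111 against 1055 CPM in the Club-Tracer library (ratio 2.001, 1.89 to 2.12) and 2951 against 1043 CPM in the BASC-Tracer library (2.83, 2.52 to 3.17). The assembly factor Zmynd10 had the highest ratio, at 347 against 112 CPM (3.11, 2.67 to 3.61) and 466 against 117 CPM (4.00, 2.93 to 5.40). Tekt4 was at 1.60 (1.38 to 1.84) and 2.17 (1.59 to 2.93), and Tekt1 at 1.52 and 2.03.

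The lower members lay in several roles. Tmem212 stood at 325 against 1628 CPM (0.200, 0.174 to 0.228) in the Club-Tracer library and 510 against 1327 CPM (0.385, 0.298 to 0.489) in the BASC-Tracer library, and Cfap43 at 0.231 (0.171 to 0.305) and 0.269 (0.142 to 0.465). Sec14l3 stood at 2103 against 5381 CPM and 1878 against 6240 CPM. Dnah5 was at 68.5 against 336 CPM in the Club-Tracer library (0.204, 0.149 to 0.272). It was at 348 against 394 CPM in the BASC-Tracer library (0.883, 0.641 to 1.19), where only 3 cells had at least 2 Mcidas UMIs. All 4 dyneins were below 0 on the log2 scale in the Club-Tracer library (median -1.13) and 4 of 5 central apparatus genes (median -1.01). Of the dyneins, Dnali1 was at only -0.15 there, and the interval of its ratio (0.898, 0.742 to 1.08) includes 1. In the same library 29 of the 38 members other than Mcidas lay below 0 (median -0.46, all genes -0.05). In the BASC-Tracer library 20 of 38 were below 0 (median -0.12, all genes 0.26), with 3 of 4 dyneins (median -0.27, Dnali1 at 0.64) and 3 of 5 central apparatus genes (median -0.28).

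Single cells overlapped on most of these genes. In the 20 Club-Tracer cells Tmem212 ran from 0 through a median of 153 to 1321 CPM, and in the 414 cells from 0 through 1581 to 6659 CPM. Zmynd10 ran from 125 through 368 to 570 CPM in the 20 cells and from 0 through 91.6 to 774 CPM in the 414. Dnah5 was at 0 UMIs in 10 of the 20 cells and in 53 of the 414. The cells with Mcidas were deeper, with a median of 34362 UMIs against 11572, and 1 of the 20 was marked as a doublet. Among cells with at least 20000 UMIs, 15 with Mcidas and 87 without, Tmem212 stood at 340 against 1446 CPM, Dnah5 at 74.2 against 276 CPM, Zmynd10 at 340 against 108 CPM and Foxj1 at 2010 against 1055 CPM. The direction of these 4 genes was thus the same among deep cells.

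**Figure D5:**
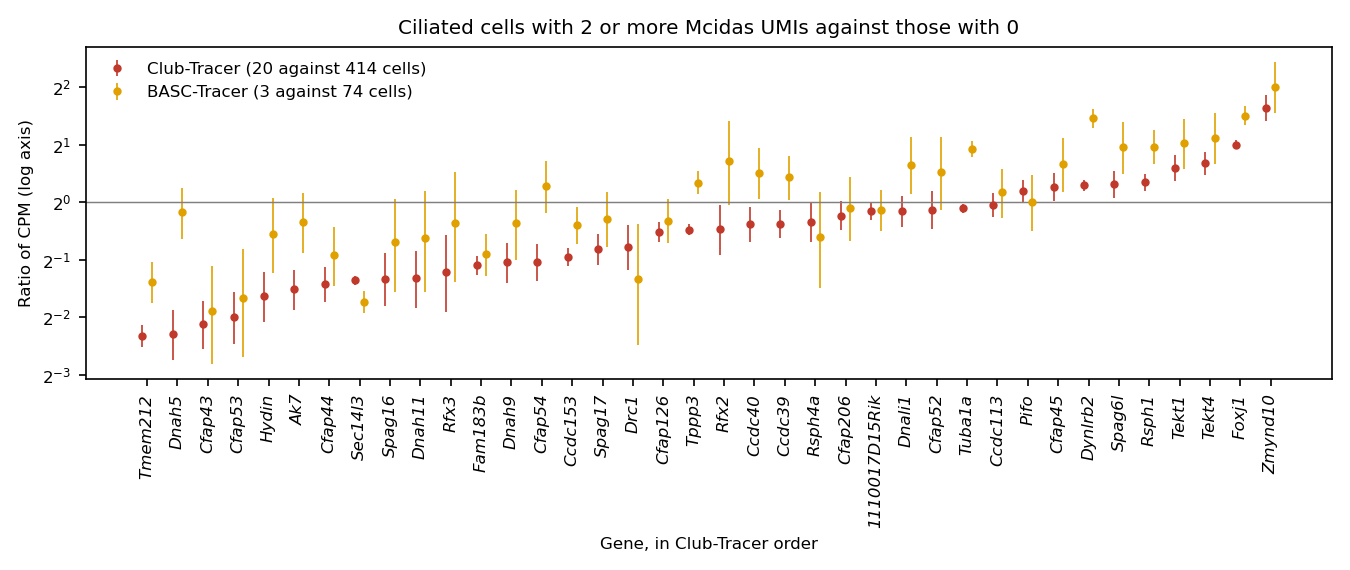
Ratio of CPM in ciliated cells with at least 2 Mcidas UMIs to those with 0, for 38 genes in the order of the Club-Tracer ratio, on a log axis, with exact 95% intervals for counting error. Points are libraries (20 against 414 cells and 3 against 74 cells), and the line is a ratio of 1. Tmem212 (0.200) and Dnah5 (0.204) lie lowest and Zmynd10 (3.11) and Foxj1 (2.001) highest in the Club-Tracer library.

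Mcidas was rare outside the ciliated-like cluster, with at least 1 UMI in 26, 13 and 11 kept cells of the Club-, BASC- and AT2-Tracer libraries and at least 2 in 5, 0 and 0. Of these 5, 1 club-like cell had 9 Mcidas, 22 Foxj1, 8 Ccno and 18 Cdc20b UMIs with 20 structural UMIs. Another, in the upper airway secretory-like class, had 9 Mcidas, 62 Foxj1, 32 Ccno and 10 Cdc20b UMIs with 29 structural UMIs. The ratios of structural to Foxj1 UMIs in both cells lay below those of the ciliated-like cluster, and neither was marked as a doublet.

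Several members share their place in the genome with other counted genes, which limits their counts. In the GENCODE annotation of GRCm38, which may differ from the one used for counting, Cfap43 overlaps Gsto1, Gsto2 and Itprip, Ccdc39 overlaps Ttc14, Dnah11 overlaps Cdca7l, Dnali1 overlaps Gnl2, and Spag17 overlaps Spag17os and Wdr3. The labels do not state whether the counting used strand. Foxj1 (chromosome 11, 116330704 to 116335399, reverse strand), Sec14l3 (chromosome 11, 4064841 to 4077736, forward strand), Tuba1a and Tppp3 overlap no other counted gene.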

How the data were processed

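Single-cell 5′ libraries of sorted lung cells were analysed, 1 per lineage (Club-Tracer, BASC-Tracer, AT2-Tracer). The deposited matrices hold raw UMI counts, per the file headers. Cell Ranger 6.1.1 and mm10 are named in the submitters' processing notes, which give no annotation release.

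Barcodes with at least 500 genes and at most 15% mt- UMIs were kept, 10457 in all. Scrublet doublets (scanpy 1.11.5) stayed in and were left out as an alternative: 87, 17 and 101 kept barcodes were marked, from the expected rate where the automatic threshold marked under 0.5%. Counts were scaled to 10000, log-transformed and clustered on 2000 variable genes, without the 39 members, the listed cilia genes or the reporters (30 components, 15 neighbours, Leiden resolution 1, 27 clusters, no batch integration). A cluster was called X-like with at least 4 markers of X in its top 50 genes by fold and at least 2 times the next list. No other list could have more markers in its top 10 genes, and shallow clusters needed a marker of X there. Rebuilt names may differ from the study's. Cells past the Foxj1 rule were taken out of other classes unless stated. UMIs were summed per library and class, with exact Poisson intervals for CPM, Clopper-Pearson intervals for shares and conditional intervals for ratios of CPM, all 95%. Ratios on the log2 scale used a pseudocount of 5 CPM and a minimum of 50 CPM. Cells were compared at equal depth by thinning each to 1500 UMIs, which dropped those with fewer, 3 of them among Club-Tracer ciliated cells. The shallow AT1-like class lost the larger part, with 132 of 192 Club-Tracer cells kept. Ratio code was tested on simulated data.

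Every member of the regulators, dyneins, radial spokes and assembly genes is named, with the 2 highest and 2 lowest by Club-Tracer CPM in larger roles, members at least 2-fold apart between libraries or at 50 CPM in another class, and the 2 extremes at each end of each list of other cilia genes. Other named genes, the Mcidas split and the structural set were chosen after their values were seen. The members and lists were chosen with earlier results of these data known. Python 3.11.15, numpy 2.4.6, scipy 1.17.1 and pandas 2.3.3 were used.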

Additional observations from a re-analysis of the deposited data

How the results depend on the processing

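Under each alternative run 37 to 39 members were at least 2-fold higher in ciliated than in club-like cells and 0 were apart between Club- and BASC-Tracer ciliated cells, but the first count includes Foxj1 and is largely fixed by the minimum and the second is at the background, so neither shows stability. Scaling to the median ratio of all genes left 677 of 3571 genes higher and 362 lower (from 1548 and 91), and 39 of the 39 members stayed at least 2-fold higher. The shares of cells and of member UMIs moved with how a ciliated cell was defined. Shares are given in the order Club-, BASC- and AT2-Tracer. With Foxj1 at 1 or more UMIs, ciliated cells were 21.5%, 8.63% and 2.10% of barcodes and members 1.28%, 1.33% and 0.204% of their UMIs. With 3 or more they were 14.3% and 0.529% in the Club- and AT2-Tracer libraries, and members 1.88%, 2.08% and 0.643%. The ciliated-like cluster alone gave 0.273% in the AT2-Tracer library and member shares of 2.24%, 2.33% and 2.21%. Both conditions together, added after seeing the data, gave 13.8% and 0.188% in the Club- and AT2-Tracer libraries and member shares of 2.25%, 2.34% and 2.20%. Without marked doublets member shares were 1.75% and 1.93% in the Club- and BASC-Tracer libraries, and without Tuba1a 1.51%, 1.64% and 0.425%. The Club-Tracer share was 17.7% with at least 1000 genes and 14.1% with at least 200, and the AT2-Tracer member share was 0.457% with at most 10% mt- UMIs. The cause of these moves was not tested beyond the change of cells each alternative makes. In clusters built with all variable genes, Sec14l3 stood at 1193 CPM in AT2-Tracer AT1-like and 419 CPM in Club-Tracer club-like cells, and Tuba1a at 224 and 176 CPM in AT2-Tracer transitional-like and AT1-like cells. No paired analysis was possible because each lineage has 1 library.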
